A study of Mus musculus with 6 samples.

Results

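The liver RNA-seq library of mice given carbon tetrachloride together with JT003 was compared with that of mice given carbon tetrachloride alone, across all genes. These were 2 of the 6 libraries of the series, taken because their labels differ only in JT003, and all 13785 of 18444 listed genes with 10 or more counts in either library entered the comparison. JT003 is a short synthetic peptide designed on the active site of adiponectin as an agonist of both adiponectin receptors, and the study asked whether it eases fatty and fibrotic liver disease. The labels name a corn oil vehicle, CCl4 and CCl4 plus JT003 in the fibrosis model, and a standard diet (SD), a high fat diet (HFD) and HFD plus JT003 in the diet model. The study names the strain C57BL/6J, and the sample records name it C57BL/6. Male mice of 6 to 8 weeks were used in both models. In the fibrosis model they received a 20% solution of CCl4 in corn oil into the peritoneum. The dose was 5 ml per kg every 3 days for 6 weeks. The JT003 group also received 500 µg per kg of peptide into the peritoneum daily for 3 weeks. In the diet model the JT003 group received the same daily dose for longer, while fed the HFD. The study describes 6 mice per group and a fast of 8 h. Whether a library came from a single mouse or from pooled livers, and the time of day at which livers were taken, were not given in the sources used here. The CCl4 library held 20156841 counts, the CCl4 plus JT003 library 19374236, and the corn oil library, used for reference, 19409752.

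CCl4 is turned into a reactive radical by the cytochromes P450 of hepatocytes around the central vein, and repeated doses lead to cycles of cell death, inflammation, hepatocyte division and scar formation. Adiponectin, a hormone of fat cells, acts in the liver through Adipor1 and Adipor2, which are linked to AMP-activated kinase and to the nuclear receptor PPARalpha. Many liver genes also follow the time of day, feeding and growth hormone pulses.

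With 1 library a side there was no spread between mice, no test of the treatment and no replicate check of any difference. Counts were scaled by library size with TMM factors, and the log2 ratio of CCl4 plus JT003 over CCl4 was taken after adding a prior count of 2. A gene was called higher or lower when this ratio was 1 or more on the log2 scale in either direction and the exact 95% interval of the ratio lay on 1 side of no change. These intervals cover counting error only. Counts of a gene are given below in the order corn oil, CCl4 and CCl4 plus JT003, unless stated. In bulk liver, fewer cells of a type and less RNA per cell cannot be told apart.

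Most genes differed little between the libraries. Over all genes the median log2 ratio was -0.01, 69.7% of genes lay within 0.5 of no change, and the 5th and 95th percentiles were -0.92 and 0.99. The rule called 8.33% of genes, 4.25% higher and 4.08% lower. The share called fell with depth, from 15.5% of the 3978 genes with 10 to 99 counts in the higher library to 5.76% of the 6843 genes with at least 100 counts but fewer than 1000 and 4.62% of the 2964 genes above that. Large changes lay mostly on the lower side: 166 genes fell and 78 rose by 2 or more on the log2 scale, and by 3 or more 74 fell and 19 rose. Genes called lower held 1.08%, 2.32% and 0.916% of all counts in the order given above, while genes called higher held 1.92%, 0.696% and 1.99%. In these sums the CCl4 library stood apart and the CCl4 plus JT003 library lay near the corn oil library, and since the genes were chosen by their distance between the CCl4 libraries, part of that pattern follows from the choice.

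A further source of CCl4 counts was available. A comparison table deposited by the authors holds a pooled CCl4 column that contained the counts of the CCl4 library within rounding, and subtracting that library left 39780549 counts from other CCl4 material. Against this remainder the rule called 8.1% of 14592 genes, 2.48% as higher with JT003 and 5.62% as lower. The higher share of the calls was therefore 30.6%, against 51.0% with the CCl4 library as comparator. The remainder itself differed from the CCl4 library: 4.35% of 14545 genes were called between them, 551 higher and 82 lower in the remainder. This measure, added after the data were seen, compares the CCl4 library with a larger sum of counts whose samples were not identified. That the remainder holds CCl4 material without JT003 was inferred from the label and values of the column. If the remainder sums several preparations, differences among them are averaged in it. The measure therefore does not give the size of differences between separate CCl4 preparations. Calls lost or gained against the remainder are given for many of the genes below, though not for all.

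**Figure D1:**
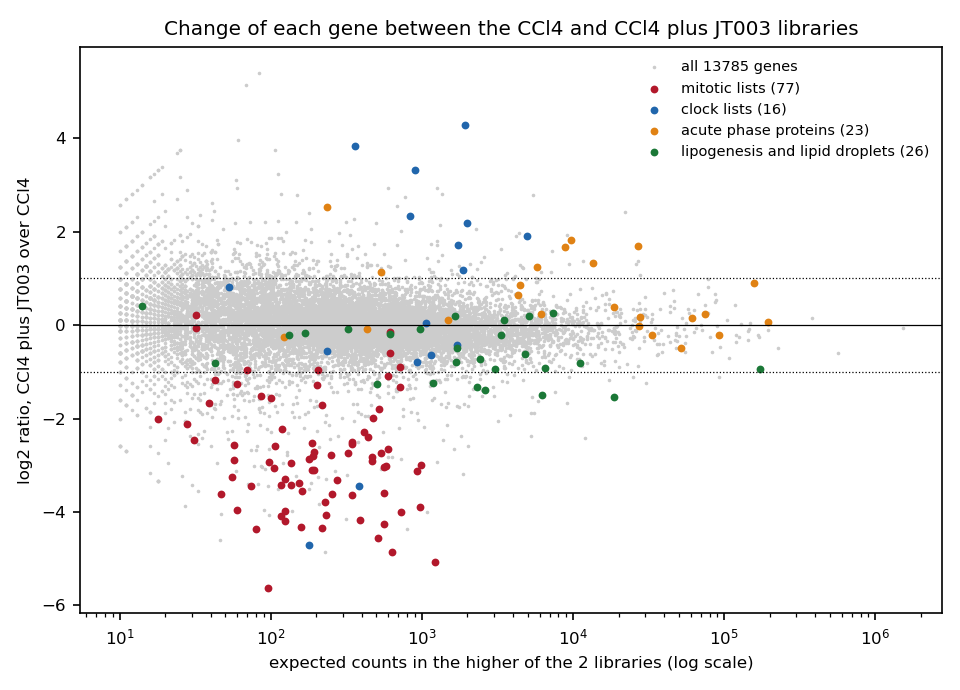
Each point is a gene, placed by its expected counts in the higher of the CCl4 and CCl4 plus JT003 libraries (log scale) and by its log2 ratio of CCl4 plus JT003 over CCl4; dotted lines mark log2 ratios of -1 and 1. The 77 genes of the mitotic lists lie below 0 with 1 exception and mostly below -1, clock genes lie on both sides, and acute phase proteins lie mostly above 0.

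The marker genes matched liver tissue in both libraries. Alb took 7.55% of counts without JT003 and 7.62% with it, and none of 16 hepatocyte secreted proteins was called, with a median log2 ratio of -0.10. Their sum was 165686 CPM (counts scaled to the same library total) in CCl4 and 156166 with JT003. Hnf4a, the regulator of hepatocyte identity, had 15044, 14492 and 12467 counts, and of the 18 hepatocyte transcription factors only Onecut1 was called, rising from 61 to 170 counts at a list median of -0.01. The 4 Y chromosome genes were present in all 3 libraries and not called, as in male liver, while Xist had 18, 4 and 18 counts. The Xist log2 ratio was 1.73 and 0.45 on the FPKM scale, so at this depth its call rests on very few reads, and it was lost against the remainder. Genes of other tissues were low: of 9 pancreatic acinar and 7 skeletal muscle markers 1 of each list had 10 or more counts, Cela1 with 123 in both libraries and Mylpf with 12 and 9. Among adipocyte markers Plin1 and Retn were at 0 in both libraries, Adipoq had 1 and 0 counts, and Car3, which hepatocytes also express, was the most abundant with 15312 and 8859. Fabp4, the only other adipocyte marker tested, rose slightly from 87 to 118. Its log2 ratio was 0.42, that of Car3 was -0.80, and neither gene was called. The remainder contained 650 Fabp4 counts, so that Fabp4 was called lower with JT003 against it, at -1.40. The red blood cell markers, led by Hba-a1, did not differ between the libraries, with a median log2 ratio of 0.00 and sums of 352 and 362 CPM, but 5 of 6 were called lower in CCl4 plus JT003 against the pooled remainder, at a median of -2.57. The remainder thus held more red blood cell RNA than either library, and the part of that in other differences from the remainder was not tested. Mesothelial markers, led by Msln, summed to 15.1 and 7.48 CPM, and Msln and Upk3b of the 5 were called lower, with Upk3b at -0.94 and not called against the remainder.

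Among the lists with at least 8 tested members, the mitotic lists had the most uniform change. The lists were chosen with earlier results of these data known, so this ranking is a description only. Of 26 mitotic kinases, cyclins and exit factors 24 fell and none rose, at a median log2 ratio of -3.02. Spindle, kinesin and cytokinesis proteins fell in 27 of 28 cases with a median of -3.18, and centromere, kinetochore and condensin proteins in 19 of 23 with a median of -2.11. Together the 77 genes summed to 148, 1153 and 228 CPM, so the level in the treated library was closer to the vehicle library than to CCl4. The medians kept their direction under every scaling tried. Against the pooled remainder 68 of the 77 were called lower with a median of -2.44, so the change was smaller but not tied to a single CCl4 library. The 2 comparisons share the CCl4 plus JT003 library.

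Among the kinases, Plk1, which drives mitotic entry and spindle assembly, had 12, 564 and 28 counts and a log2 ratio of -4.25 (95% interval -4.95 to -3.80). Bub1, a kinase of the spindle checkpoint, had 0, 80 and 2 counts, with an interval of the log2 ratio from -8.40 to -3.43. Ttk, another checkpoint kinase, had 3, 125 and 5. Each of these was nearly absent without CCl4 and again with JT003. Cdc25c, the phosphatase that activates Cdk1, had 1, 96 and 0 counts, and the interval of its log2 ratio lay below -4.68. Cdca3, which helps degrade the mitotic inhibitor Wee1, fell from 1086 to 66 counts after 24 in corn oil. Racgap1, a regulator of the contractile ring at cytokinesis, had 11, 510 and 20 counts and a log2 ratio of -4.55 (-5.41 to -4.04). The kinesins Kif20a and Kif2c had 728 and 231 counts in CCl4 and 44 and 12 with JT003. At the kinetochore Nuf2 went from 158 to 6 counts and Cenpf from 276 to 26, and the condensin subunit Ncapg from 125 to 11. Among other spindle proteins Ckap2l had 9, 389 and 20 counts, Iqgap3 5, 219 and 9 and Troap 4, 117 and 5. These falls were spread over enzymes, motors and structural proteins, and 70 of the 77 genes were called lower.

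The other 7 members were not called. Pttg1, which encodes securin and had the highest FPKM of the 3 lists, had 688, 612 and 560 counts and a log2 ratio of -0.14 (-0.31 to 0.03). It was as high in corn oil as in CCl4, unlike the members that fell. Spc24 of the Ndc80 complex had 319, 714 and 388 counts with -0.89 (-1.07 to -0.71), below CCl4 but short of the threshold, as were Ncapg2, Cenpm and Smc4. The intervals of Fbxo5 and Kif15 included no change.

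Earlier phases of the cell cycle changed less. Of 32 DNA replication genes 7 fell and 1 rose, with a median of -0.60. Rrm2, the S phase subunit of ribonucleotide reductase, had 93, 601 and 84 counts and a log2 ratio of -2.82, Gins2 of the replicative helicase 2, 121 and 14, and Mcm5 28, 182 and 59. Pole, Prim1, Fen1 and Rrm1 were the other members called lower, and Pole and Rrm1 were not called against the remainder. The polymerase clamp Pcna and the thymidine kinase Tk1 were not called, and Tk1 held 250, 613 and 576 counts. Mcm10 went the other way with 1985, 725 and 1763 counts. The replication genes thus divided, with some at CCl4 levels and some at vehicle levels in the treated library. Among 21 S phase repair genes 10 fell and none rose, with a median of -0.86, among them Fanca (6, 78 and 8 counts). Against the remainder 9 were called lower. The median rests on rarely read genes, since over members with 100 or more counts it was 0.13.

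Of 26 G1 cyclins, inhibitors and cell cycle transcription factors 5 fell and none rose, at a median of -0.28. Foxm1, the factor that switches on the G2 and M phase genes, fell from 319 to 33 counts with 7 in corn oil, and its log2 ratio was -3.21. Cdkn3 had 5, 315 and 16 counts, E2f2 19, 60 and 20, and Rbl1 16, 69 and 30. Cdkn1a, which encodes the inhibitor p21 and is a main p53 target, had 1050, 3208 and 783 counts and a log2 ratio of -2.04 (-2.16 to -1.93). An inhibitor of the cycle and the drivers of mitosis were therefore lower at the same time. The other p53 targets did not follow Cdkn1a: of 18 only Cdkn1a and Gadd45a fell, the median was 0.03, and Bax kept 855 and 886 counts. The Gadd45a call, at -1.05, was lost when libraries were scaled by total counts.

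Of 12 tubulins and their partner Stmn1 7 were called lower with a median of -1.08, and against the remainder 5 of 13 with a median of -0.92. Tuba1c and Tubb5 were not called there, and Tuba1c was not called under total-count scaling. Stmn1, which destabilizes microtubules, had 145, 2032 and 340 counts, Tubb6 169, 1387 and 253, Tubb2a 1239, 5248 and 1025, and Tuba1b 566, 3845 and 1012. The list summed to 491, 1298 and 458 CPM, so the sum with JT003 was near that of vehicle, although Stmn1, Tubb6 and Tuba1b stayed above it.

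Genes that move together in the G2 and M phases often carry a short element called CHR near their start, with the letters TTTGAA, and a CCAAT box. These letters were sought on both strands in RefSeq promoters of the mouse build GRCm38.p6, each 300 bases long with 250 before the annotated start. Of all 32851 promoters 17.9% held TTTGAA (or TTCAAA) and 37.4% CCAAT (or ATTGG), and matches to both overlapped in 47 promoters. Of the 10923 tested genes with a listed promoter, 14.9% held TTTGAA, 42.9% CCAAT and 6.12% both. Of the 77 mitotic genes 68 had a promoter, and 45 of these (66.2%) held TTTGAA, 48 (70.6%) CCAAT and 36 (52.9%) both. DNA replication genes, which changed less, held TTTGAA in 3 of 29 cases and S phase repair genes in 1 of 15. Lists without a common fall could also have high shares. TTTGAA was in 9 of 17 sulfo- and glucuronosyltransferases, 6 of 12 female-biased genes and 15 of 36 cytochromes P450. The list of G1 cyclins, inhibitors and cell cycle transcription factors had it in 6 of 20. Over all genes called lower the share with TTTGAA was 27.8% of 421 and over those called higher 17.9% of 425. In the first listed promoter of each mitotic gene 45 of 57 TTTGAA matches lay within 100 bases of the start, against 41.6% of the 6737 matches in all promoters. Not every mitotic gene was considered for display. Of those considered, Cdc20, Racgap1 and Plk1 had the largest falls with both motifs in the first listed promoter. Their promoters are shown with the motifs in capitals, together with that of Pttg1, which was not called and held neither. They lie at chr4:118437294-118437593 for Cdc20, chr15:99651607-99651906 for Racgap1 and chr11:43425932-43426231 for Pttg1, all on the minus strand, and at chr7:122159185-122159484 on the plus strand for Plk1. A match is a description of these letters only.
Cdc20: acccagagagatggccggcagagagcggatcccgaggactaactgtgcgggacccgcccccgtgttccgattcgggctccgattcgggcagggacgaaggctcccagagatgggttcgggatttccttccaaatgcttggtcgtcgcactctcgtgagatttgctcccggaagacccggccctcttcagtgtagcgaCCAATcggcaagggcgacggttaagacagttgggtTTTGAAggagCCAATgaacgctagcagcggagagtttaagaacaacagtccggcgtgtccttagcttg
Racgap1: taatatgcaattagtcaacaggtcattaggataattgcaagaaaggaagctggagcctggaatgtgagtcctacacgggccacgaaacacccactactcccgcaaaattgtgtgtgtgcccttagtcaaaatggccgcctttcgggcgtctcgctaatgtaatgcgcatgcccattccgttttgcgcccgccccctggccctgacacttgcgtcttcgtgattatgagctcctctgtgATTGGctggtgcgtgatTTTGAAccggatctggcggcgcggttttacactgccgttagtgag
Plk1: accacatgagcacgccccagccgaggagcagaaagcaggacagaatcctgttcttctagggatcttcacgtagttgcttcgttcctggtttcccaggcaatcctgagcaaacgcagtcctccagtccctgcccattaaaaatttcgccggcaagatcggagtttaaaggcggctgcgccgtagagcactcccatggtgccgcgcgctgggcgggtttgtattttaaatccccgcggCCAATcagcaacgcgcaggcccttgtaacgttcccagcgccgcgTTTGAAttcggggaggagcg
Pttg1: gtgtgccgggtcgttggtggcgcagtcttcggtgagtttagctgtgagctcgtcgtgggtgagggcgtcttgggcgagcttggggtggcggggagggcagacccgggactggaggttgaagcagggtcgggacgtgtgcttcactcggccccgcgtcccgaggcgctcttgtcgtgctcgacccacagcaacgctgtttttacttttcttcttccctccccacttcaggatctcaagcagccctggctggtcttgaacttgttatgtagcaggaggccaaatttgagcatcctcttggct

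Clock genes were among the largest rises of genes with 100 or more counts, led by Dbp and Ciart. The circadian clock runs on Arntl (BMAL1), Clock and Npas2, which bind the E-box CACGTG and switch on the Per genes, Ciart and the output factors Dbp and Tef, whose transcripts peak when that of Arntl is low. Dbp had 824, 96 and 1931 counts and the highest log2 ratio of the listed genes, 4.29 (4.02 to 4.63). Ciart, a repressor of the clock, had 155, 23 and 359 counts and Per3 180, 87 and 898. In each the treated library was above vehicle as well as above CCl4. Of the 11 genes of this phase 8 rose and none fell, with a median of 1.91. The others were Per2 (268, 163 and 832), Tef (2654, 1317 and 4990), Usp2 (479, 430 and 1984), Nr1d2 (874, 525 and 1744) and Per1 (937, 818 and 1882). In the opposite phase Npas2 had 27, 179 and 5 counts with a log2 ratio of -4.70 (-6.81 to -3.92) and Arntl 142, 386 and 34 with -3.44 (-4.07 to -3.01). These were the 2 called of 5, all 5 lay below 0 and the median was -0.79. Against the pooled remainder the medians were 1.83 and -0.72, so the opposed shift of the phases did not depend on the CCl4 library. Per1 was not called there, at 0.77, and the log2 ratio of Ciart went from 3.84 to 2.42. For Ciart the remainder was also called higher than the CCl4 library, at 1.47. The list of the Dbp phase summed to 508, 308 and 878 CPM with Tef the most abundant by FPKM, and no member of either list was at 0 in both libraries. The hour at which each library was collected is not known, and its part in these and all other differences was not tested.

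Nampt, which makes NAD from nicotinamide, had 686, 547 and 2297 counts, and the deadenylase Noct 441, 353 and 1252. Upp2, a uridine phosphorylase, had 3731, 784 and 5438 counts and a log2 ratio of 2.78 (2.68 to 2.89), or 1.87 against the remainder. Of 10 genes of the Dbp phase with a promoter 4 held CACGTG, as did 1 of 5 of the Arntl phase and 11.5% of tested genes, and the share over all promoters was 7.15%. Ciart and Tef had the 2 largest called rises of the Dbp phase with CACGTG in the first listed promoter. Their promoters are shown with CACGTG in capitals, from chr3:95882179-95882478 on the minus strand for Ciart and chr15:81802423-81802722 on the plus strand for Tef, the first of its 2 promoters in the table.
Ciart: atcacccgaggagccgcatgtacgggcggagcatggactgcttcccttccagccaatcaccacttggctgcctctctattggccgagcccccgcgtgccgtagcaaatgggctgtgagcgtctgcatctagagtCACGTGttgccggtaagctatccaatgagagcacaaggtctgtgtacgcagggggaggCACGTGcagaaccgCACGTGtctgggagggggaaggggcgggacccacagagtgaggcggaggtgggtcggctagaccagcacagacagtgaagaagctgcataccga
Tef: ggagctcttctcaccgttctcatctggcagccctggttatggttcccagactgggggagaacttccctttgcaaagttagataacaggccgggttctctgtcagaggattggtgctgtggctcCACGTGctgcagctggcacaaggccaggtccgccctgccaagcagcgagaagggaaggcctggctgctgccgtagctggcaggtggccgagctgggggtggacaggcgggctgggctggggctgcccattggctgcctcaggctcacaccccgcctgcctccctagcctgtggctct

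**Figure D2:**
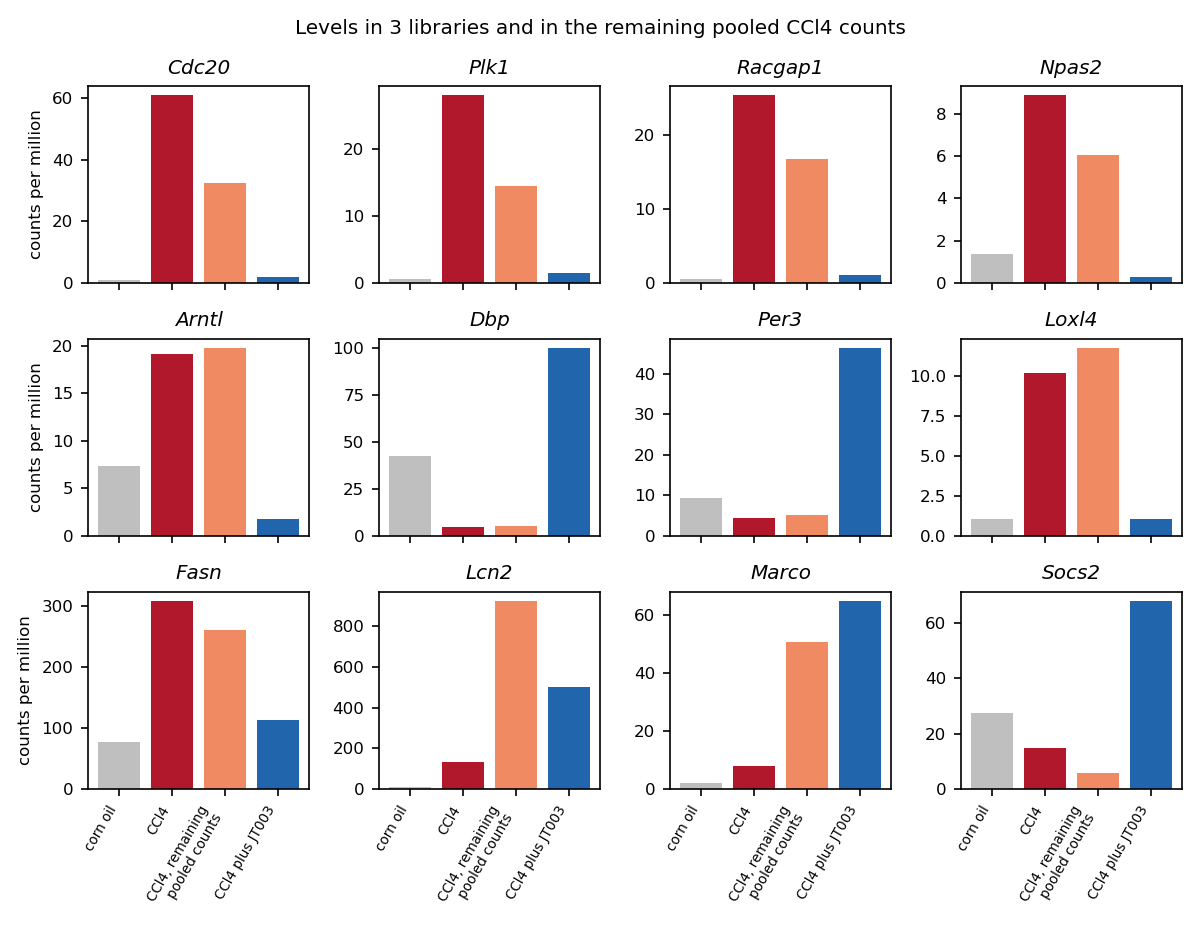
Bars give CPM of 12 genes in the corn oil, CCl4 and CCl4 plus JT003 libraries and in the remaining pooled CCl4 counts. Cdc20, Plk1, Racgap1, Npas2, Arntl, Loxl4 and Fasn were high in both sets of CCl4 counts and lower with JT003, Dbp, Per3 and Socs2 were highest with JT003, and Lcn2 and Marco differed between the 2 sets of CCl4 counts.

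Scar matrix is laid down in CCl4 liver by activated stellate cells. Most of the matrix lists moved little between the libraries. Of 20 collagens 2 fell, Col1a1 and Col1a2, and the median was -0.34. Col6a3 had 130, 442 and 248 counts, and Col18a1, the most abundant by FPKM and made by hepatocytes, 14307, 20460 and 16060. The collagens summed to 966, 1648 and 1283 CPM, so the treated library lay between vehicle and CCl4. Against the pooled remainder the median was -0.75 and 6 were lower, Col3a1, Col4a1, Col6a2 and Col6a3 besides the pair named. Of 27 other matrix proteins and crosslinking enzymes 5 fell with a median of -0.25, and 8 against the remainder with a median of -0.80. The crosslinking enzyme Loxl4 stood out with 20, 206 and 20 counts and a log2 ratio of -3.25 (-4.12 to -2.71), the same raw count as in vehicle. Elastin (Eln) had 144, 396 and 172 counts, the basement membrane protein Nid1 165, 1128 and 460, and Nid2 and Fbn2 were the others called. Fbn2 had 0, 31 and 10 counts and was not past the threshold on the FPKM scale. Fibronectin (Fn1), the most abundant, had 16558, 29479 and 23588 and was not called. The matrix change was thus a fall of a few genes on a small general shift, larger when the remainder was the comparator.

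Of 20 matrix proteases and inhibitors Mmp12 and Adam8 fell, and the median was -0.34. Against the remainder 8 of 21 were lower, at a median of -0.70. Adam8 had 8, 96 and 38 counts. Among 19 stellate cell and myofibroblast markers Acta2 (165, 108 and 45) and Tagln (195, 306 and 142) fell and none rose, with a median of -0.43. Acta2 was no higher in the CCl4 library than in vehicle, unlike Col1a1. The quiescence marker Lrat, which stores retinol esters, had 135, 142 and 258 counts and a log2 ratio of 0.84, short of the threshold. The list, with Ecm1 its most abundant member by FPKM, summed to 251, 312 and 290 CPM and no member was at 0 in both libraries. None of 27 genes of TGF-beta, activin and PDGF signaling was called, at a median of -0.07, and Tgfb1 had 103, 257 and 209 counts. Against the remainder Id3 was called higher, at 1.38, and Tgfb3, Inhbb, Ltbp1 and Ltbp2 lower, at a median of -0.19.

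Inflammatory genes depended on the CCl4 counts they were compared with. Of 27 macrophage markers 2 rose and 2 fell against the CCl4 library at a median of 0.12, and 7 fell and none rose against the remainder at a median of -0.51. Gpnmb, a marker of lipid-laden and scar-associated macrophages, had 14, 843 and 232 counts with a log2 ratio of -1.86, and -2.72 against the remainder. Lgals3 went from 485 to 234 counts with -1.06 and -1.54, and its call against the library was lost under total-count scaling. These 2 fell under either comparator. Marco, a scavenger receptor of resident macrophages, had 41, 161 and 1252 counts and a log2 ratio of 2.93 (2.71 to 3.19), but the remainder held 2008 counts and gave 0.37. Timd4 had 19, 18 and 56 counts with 1.53, and turned to -0.26 against the remainder. For Marco and Timd4 the CCl4 library thus lay below the other CCl4 counts. Clec4f, which is specific to Kupffer cells, had 413, 517 and 852 counts and was not called. The list summed to 174, 587 and 702 CPM, with C1qa the most abundant by FPKM and no member at 0 in both libraries.

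Neutrophil markers were sparse. Of 12 genes 8 were measurable, Retnlg rose from 5 to 18 counts, none fell and the median was 0.39. Against the remainder Retnlg was not called, 8 of 12 fell with a median of -1.33, and S100a9 had 39 counts in CCl4, 60 with JT003 and 291 in the remainder. The granule protease gene Prtn3 turned fully, with 19, 15 and 117 counts and 926 in the remainder, giving log2 ratios of 2.80 and -1.92. Of 16 lymphocyte markers 8 were measurable, 3 were called higher and none lower, at a median of 0.63, and against the remainder 2 were called higher at a median of 0.15. Of 20 chemokines and receptors 4 rose and 1 fell with a median of 0.40, which became -0.35 against the remainder. Cxcl1, which draws neutrophils, had 23, 72 and 357 counts, Cxcl13, which draws B cells, 8, 5 and 59, Cxcl10 33, 32 and 76, and Ccl5 23, 11 and 44. None of these 4 rises was called against the remainder. Ccl9 had 741, 2496 and 966 counts and fell under either comparator, with -1.38 and -1.36. Ifit1, Ifit3 and Gbp3 rose among 25 interferon-inducible genes, none fell, and the median was 0.39, or 0.05 against the remainder, where none was called. Ifit3 lay at the threshold and was not called with DESeq2 size factors. None of 14 antigen presentation genes was called at a median of 0.25, and Cd74 had 763, 1297 and 1939 counts.

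Genes of the acute phase list, mostly for proteins secreted by hepatocytes under interleukin-6, rose in 7 of 23 cases and fell in none, with a median of 0.24. Lcn2 had 208, 2714 and 9725 counts and a log2 ratio of 1.83 (1.77 to 1.89). Saa2 had 3165, 2759 and 8850, Saa1 4759, 5311 and 13479, and Saa4 3167, 2422 and 5783, with Saa1 and Saa2 near-identical copies whose reads may be shared between them. Orm3 and Socs3 were 2 more, at 236 and 537 counts with JT003. In the remainder, however, Lcn2 held 36757 and Saa2 18503 counts, and the log2 ratios became -0.87 and -0.01. Over the list the median against the remainder was -0.42 with only Hamp called higher and Orm2 called lower. The direction of the list median thus depended on the CCl4 counts used.

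Hamp kept its direction. It encodes hepcidin, the hormone that lowers iron export, and had 8596, 8132 and 26719 counts, with a log2 ratio of 1.71 (1.67 to 1.74) and 2.62 against the remainder. Hamp2 had 138, 768 and 1281 counts and 0.73, but 2.73 against the remainder. Of 13 iron genes Hamp alone was called, and the iron exporter Slc40a1 had 1116, 1564 and 3100 counts with 0.98, passing the threshold under total-count scaling and on the FPKM scale. Among the metallothioneins, which bind zinc and copper, Mt1 had 10896, 4102 and 22032 counts and a log2 ratio of 2.41 (2.37 to 2.46), and Mt2 4795, 2401 and 9183. They were not higher than the remainder, with -0.07 and -0.53.

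Among 22 endothelial markers Wnt9b rose from 12 to 28 counts, none fell and the median was 0.44, with 3 members below 0. The list summed to 399, 303 and 423 CPM, with Plvap the most abundant by FPKM and no member at 0 in both libraries. Stab2, a scavenger receptor of sinusoidal cells, had 578, 446 and 772 counts, Kdr 320, 153 and 287, and Bmp2, the sinusoidal signal that induces Hamp, 265, 131 and 258. None of the 3 was called, though Bmp2 was under total-count scaling. The list median against the remainder was -0.12, where Wnt9b was not called and 2 other members were called lower. Bile duct and injured epithelium markers fell in 5 of 18 cases and rose in none, with a median of -0.42. The fetal protein gene Afp had 12, 104 and 16 counts and a log2 ratio of -2.57, Ly6d 72, 1478 and 469, Anxa2 137, 816 and 339, and the progenitor factor Sox9 161, 440 and 207. Krt23 also fell and lost its call under total-count scaling. Against the remainder neither Sox9, at -0.86, nor Krt23, at -0.29, was called. The list summed to 528, 918 and 676 CPM, led by Krt18, and the duct keratins Krt7 and Krt19 were not called.

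Some genes of lipid synthesis were lower. Fatty acid synthase (Fasn) had 1506, 6211 and 2203 counts and a log2 ratio of -1.51 (-1.58 to -1.44), and Acly, which supplies its acetyl-CoA from citrate, 699, 2621 and 1006 with -1.39. Elovl5, an elongase, had 15995, 18625 and 6412 counts and Acss2 941, 2320 and 932. With Gpam and the droplet gene Cidec these were 6 of 26 lipogenesis and lipid droplet genes called lower, none was called higher, and the median was -0.68. Scd1, the desaturase with the highest FPKM of the list, had 74180, 171730 and 90643 counts and -0.93, just short of the threshold. The list summed to 7025, 12671 and 7372 CPM, so the treated library was near vehicle. Against the remainder the median was -0.44 and Fasn, Acly and Gpam were called.

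Carbohydrate genes followed in part. Pklr, the liver pyruvate kinase, had 1350, 5896 and 1913 counts and a log2 ratio of -1.63, and the glycogen targeting subunit Ppp1r3c 619, 837 and 279. G6pc, which releases glucose, went from 17176 to 7647 counts and Pygl, glycogen phosphorylase, from 9451 to 4431. These were the 4 called of 25, with a median of -0.34. Against the remainder Ppp1r3c kept its call, while Pklr (-0.99), G6pc (-0.86) and Pygl (-0.66) were not called. Of 23 cholesterol synthesis genes only Nsdhl was called, lower, at a median of -0.33. Of 20 bile acid genes Cyp7a1, the first enzyme of synthesis, rose (1387, 605 and 1233) and Cyp8b1, which sets the share of cholic acid, fell (19408, 2950 and 1186), with a median of -0.19. Against the remainder Cyp7a1 kept 1.02, while Cyp8b1 was at -0.51 and not called.

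Fatty acid oxidation and PPARalpha targets did not shift as a list, with 1 higher, 1 lower and a median of -0.08 over 32 genes. Acot3, a peroxisomal thioesterase induced by PPARalpha, had 352, 927 and 2573 counts and a log2 ratio of 1.46, while the droplet protein gene Plin2, another target, had 22002, 30237 and 12937 with -1.24. Cyp4a14 had 107814, 41666 and 67059 counts and 0.68. Against the remainder 6 were higher and none lower at a median of 0.31, with 3.11 for Acot3 and 1.22 for Cyp4a14, while Plin2, at -0.61, was not called. None of 20 oxidative phosphorylation genes was called, the median was -0.13 and the extremes were -0.35 and 0.45, and the median turned to 0.27 against the remainder. Among the receptors of the peptide, Adipor2 had 7941, 10236 and 7764 counts with a log2 ratio of -0.41 (-0.45 to -0.37), and Adipor1 2050, 2886 and 2348 with -0.31 (-0.39 to -0.23). Neither was called, and against the remainder the values were 0.02 (-0.02 to 0.06) for Adipor2 and -0.10 for Adipor1. None of the 22 genes of the receptors, AMP-activated kinase and PI3K-Akt was called, at a median of 0.02.

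The pericentral enzyme Cyp2e1, which activates CCl4, had 151340, 39104 and 77764 counts and a log2 ratio of 0.98 (0.96 to 1.00), at the edge of the threshold and past it under total-count scaling and against the remainder. Its level with JT003 thus lay between CCl4 and vehicle. Of 19 pericentral and Wnt target genes only Slc1a2 rose (3513, 6 and 42) and Slc13a3 fell (163, 98 and 42), and the median was -0.28. Glul and Oat, which mark the innermost hepatocytes, stayed at 1962 and 2594 and at 1413 and 1224 counts after 14862 and 31746 in vehicle, so both were far below vehicle in either library. In the periportal and urea cycle list Sds rose (6393, 3760 and 9397), Cdh1 fell (326, 1296 and 577) and the median was 0.04 over 21 genes. Sds was not called against the remainder, at 0.92.

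Of 37 cytochromes P450 of foreign compounds 2 rose and 4 fell, at a median of -0.17, or 0.27 against the remainder. Cyp2a5 had 4395, 1108 and 4386 counts, near the vehicle count before TMM scaling, with a log2 ratio of 1.97 (1.88 to 2.07). Its near-identical relative Cyp2a4 had 0, 943 and 231 counts with -2.03 but 0.54 against the remainder, and reads may be split unevenly between the pair. Cyp2b10, a target of the receptor CAR, had 4, 421 and 108 counts and Cyp2c55 19, 442 and 114, and Cyp3a13 rose while Cyp3a44 fell. Against the remainder Cyp2b10 (-0.75) and Cyp3a13 (0.65) were not called. Glutathione S-transferases fell in 5 of 19 cases and rose in none, with a median of -0.49. Gstm3 had 304, 11923 and 2264 counts and a log2 ratio of -2.41 (-2.47 to -2.34), and Gsta1 64, 1821 and 355. Gstm1, Gstm4 and Gstm6 fell by smaller amounts and share sequence with each other. Against the remainder only Gsta1 and Gstm3 were lower, and the list median was -0.03. Among 20 NRF2 targets, the genes induced by electrophiles, Pgd (359, 1417 and 530), Cbr3 and Slc7a11 fell, none rose and the median was -0.45, and Cbr3 was not called against the remainder. Of 18 sulfo- and glucuronosyltransferases Sult2a2, Sult2a7 and Sult2a8 rose and none fell, at a median of 0.00, and Sult2a8 had 10499, 2801 and 5696 counts.

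Growth hormone signaling in liver switches on Socs2 and Cish through STAT5, and Bcl6 opposes STAT5 at shared genes. Socs2 had 533, 295 and 1314 counts and a log2 ratio of 2.14 (1.96 to 2.33), and Cish 358, 142 and 479 with 1.73 (1.47 to 2.02). Bcl6 had 252, 1260 and 166 counts and -2.92 (-3.18 to -2.70). The targets rose and the opposing factor fell, and against the remainder the values were 3.57, 2.53 and -2.34. Stat5a and Igfbp6 were the other members called of 18, both lower, and both lost their call under total-count scaling and against the remainder. The list median was 0.27. Of 15 male-biased genes Cyp4a12a and Cyp4a12b rose, from 1045 to 2146 and from 512 to 1145 counts, and Elovl3 fell, with 8783, 731 and 99 counts and a log2 ratio of -2.87. Against the remainder Cyp4a12a (0.86) and Cyp4a12b (0.94) were not called, and of the male-biased list 3 genes were lower and none higher. The median of that list was 0.15 against the library and -0.09 against the remainder. Mup20 had 128629, 43705 and 77729 counts and was not called. Male-biased genes summed to 31144, 9327 and 10968 CPM, so the loss of the male program in CCl4 liver was little changed. Of 10 female-biased genes 4 rose and 2 fell, among them the regulator Cux2, with 6, 6 and 106 counts and a log2 ratio of 3.75 (2.96 to 5.61), which kept 3.82 against the remainder, and Cyp17a1, which rose from 180 to 431 counts but had 1730 in the remainder and turned to -0.95. The median of this list was -0.31 and became 0.54 against the remainder.

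Stress responses were mostly at or below the CCl4 level. None of 22 endoplasmic reticulum chaperones and degradation factors was called, with a median of -0.24, while the remainder gave -0.67 and 5 genes lower, Hspa5, Pdia6, Sdf2l1, Manf and Hyou1. Hspa5 (BiP) had 9516, 7967 and 5811 counts. In the PERK, ATF4 and CHOP branch 5 of 17 fell, 1 rose and the median was -0.40. Asns, asparagine synthetase, had 590, 142 and 35 counts with a log2 ratio of -1.97, Psat1 of serine synthesis 17, 110 and 29, and the hormone gene Fgf21 215, 460 and 182, with Phgdh and Nupr1 the others, while Chac1 rose from 16 to 60. Fgf21 (-0.56) and Chac1 (0.52) were not called against the remainder. Asns was below vehicle in CCl4 and lower still with JT003. Of 19 heat shock proteins the inducible Hspa1b (531, 921 and 249) and Hspa1a (39, 56 and 19) fell, at a median of -0.33. Egr1 had 418, 1463 and 335 counts and -2.13 and Nr4a1 181, 30 and 74 and 1.24, the only members called of 17 immediate early genes, with a median of -0.31. Against the remainder Nr4a1 was at 0.11 and not called, and Egr1, Egr2, Klf4 and Btg2 were called lower. Of 19 BCL2 and death receptor genes only Bmf was called, higher, at a median of 0.08, and none of 26 complement and coagulation genes, with a median of -0.09.

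The genes that the study measured by quantitative PCR in fibrotic liver were followed as a list. Of 23 with enough counts Il1b rose and Gstm1 fell, and the median was 0.18. Il1b had 22, 9 and 25 counts, too few for a firm ratio, with an interval from 0.32 to 2.75. Against the remainder neither Il1b (0.74) nor Gstm1 (-0.17) was called, and 3 others were called lower, among them Hspa5 at -1.29. Timp1 had 12, 38 and 24 counts, Tgfb1 103, 257 and 209, and Mmp2 70, 136 and 165, and none of them was called. Il6, Tnf and Mmp3 stayed under 10 counts in both libraries. These cytokine and protease genes had too few counts to be compared at this depth.

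Several large changes lay outside every list. Slc34a2, a phosphate transporter, had 32, 227 and 6 counts and a log2 ratio of -4.85 (-6.71 to -4.11). Knstrn, a kinetochore and spindle protein, had 12, 795 and 37. Of the 15 largest falls among genes with 100 or more counts, those not tied to division were Slc34a2 and Npas2. Among the largest rises Serpina4-ps1 had 1793, 75 and 596 counts with a log2 ratio of 2.95, Gm15441 723, 190 and 1350 with 2.81, and Nrep 90, 115 and 689 with 2.55. Against the remainder these had 3.19, 3.03 and 2.93. Gbp11 had 58, 10 and 112 counts, Phf11c 86, 20 and 150 and C730036E19Rik 239, 112 and 770. Their log2 ratios of 3.24, 2.78 and 2.75 became 2.24, 1.09 and 2.24 against the remainder. At this count limit most of the 15 largest falls were tied to division, while the largest rises were of mixed function. This was not tested against other genes.

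**Figure D3:**
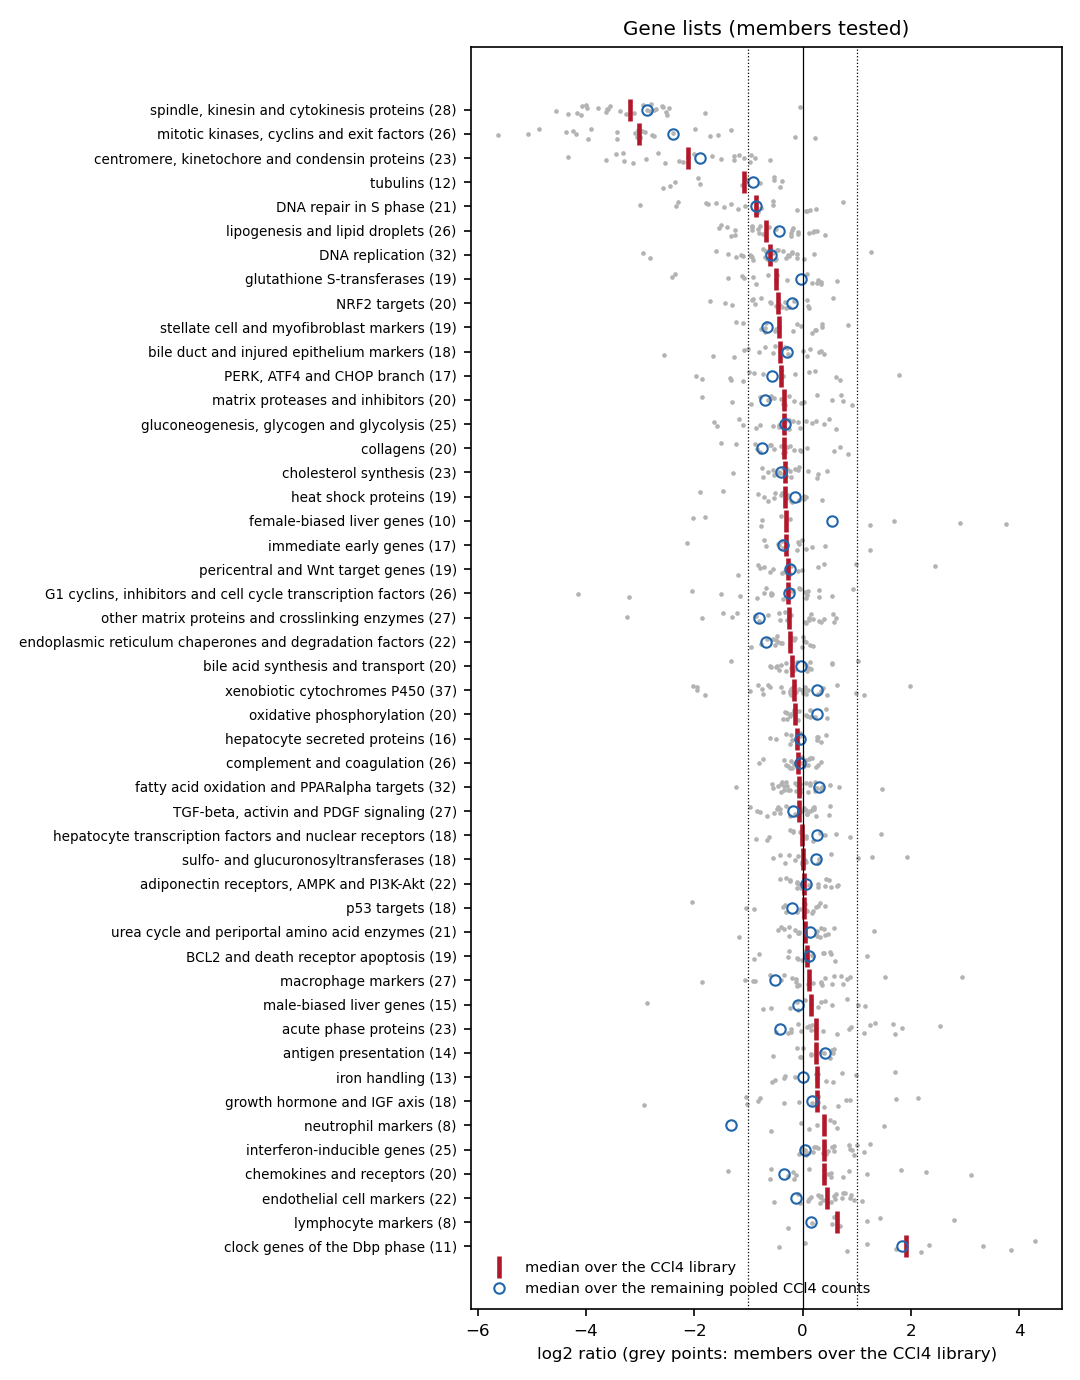
Each row is a gene list with at least 8 tested members (number in brackets), ordered by the median log2 ratio of CCl4 plus JT003 over the CCl4 library (red bar); grey points are members and open circles give the median over the remaining pooled CCl4 counts. The mitotic lists and the clock genes of the Dbp phase lie apart from the rest with either comparator, while neutrophil markers, chemokines, acute phase proteins and macrophage markers lie above 0 with the library and below 0 with the remainder.

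JT003 in the diet model gives a reference from other libraries. There 4.07% of 13453 genes were called between HFD plus JT003 and HFD, fewer than in CCl4 liver. The mitotic lists together had 3 genes called higher and 2 lower of 57 measurable, with a median log2 ratio of 0.20, and the Dbp phase of the clock had a median of 0.15 with Nr1d1 and Bhlhe41 called lower. In the Arntl phase the median was 0.56, with Cry1 called higher and Npas2 lower, at -2.24. Col1a1 and Col1a2 were called lower there, with -1.41 and -1.07, and so were Gpnmb and Cdkn1a, with -2.04 and -1.65. Hamp was called higher with 1.33 and Acot3 with 2.78. These genes and Npas2 lay on the same side of the control in both models, while the medians of the mitotic lists and of the Arntl phase did not, and that of the Dbp phase was much smaller. The difference between the models was not tested.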

How the data were processed

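Liver RNA-seq of 6 libraries was available, 1 per group. Per the submitters' processing notes, HISAT, Bowtie2, RSEM and the mm9 build were used. The expected counts were estimated per gene with RSEM by the authors before they were deposited. The FPKM values were computed by the authors from the same estimates and deposited beside them. The deposited comparison tables also hold fold change and p columns, which were not used, and 8 expression columns, of which only the pooled CCl4 column was used. That it holds the CCl4 library was inferred from its values, and comparing its remainder with that library was added after the data were seen.

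Expected counts were rounded. TMM factors came from edgeR 4.0.16 and alternative size factors from DESeq2 1.42.0 in R 4.3.3. Ratios used a prior count of 2 and exact (Clopper-Pearson) 95% intervals, in Python 3.11.15 with scipy 1.17.1, and were checked on simulated data. Genes needed 10 counts in either library and a log2 ratio of 1 in size. FPKM ratios used a pseudocount of 0.1. Alternatives changed the scaling, the filter, the prior, the rule and the comparator.

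Members and 57 gene lists (1050 genes) were chosen with earlier results of these data known. Named genes were the 15 largest called rises and falls with at least 100 counts, of each list the 4 largest ratios in size among members with at least 50 counts and the member with the highest FPKM, the adiponectin receptors, the quantitative PCR genes and the most abundant markers of other tissues. Chosen after their values were seen were Mt2, Nampt, Noct, Clec4f, Glul, Oat, Pcna, Krt7, Krt19, Plin1, Retn, Adipoq, the mitotic genes not called, and members named to complete a count of calls: Prim1, Fen1, Rrm1, Mcm10, Rbl1, Tuba1c, Tubb5, Usp2, Nr1d2, Per1, Nr1d1, Bhlhe41, Cry1, Inhbb, Ltbp1, Ltbp2, Egr2, Btg2, Col4a1, Col6a2, Fbn2, Retnlg, Ccl5, Saa1, Saa4, Socs3, Orm2, Wnt9b, Krt23, Gpam, Cidec, Slc1a2, Cyp3a13, Cyp3a44, Gstm6, Slc7a11, Sult2a2, Sult2a7, Igfbp6, Sdf2l1, Manf, Phgdh and Nupr1. Promoters were RefSeq GRCm38.p6. Results for a few genes are not reported here.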

Additional observations from a re-analysis of the deposited data

Results flagged for a closer look

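These genes were called in both models with opposite directions, each from 1 library a side, and no difference between the models was tested. The log2 ratios of HFD plus JT003 over HFD were lower for genes that rose in CCl4 liver: -3.23 for Prtn3, -1.53 for Lcn2, -1.33 for Saa2, -1.01 for Sds and -1.01 for Cyp4a12a. They were higher for genes that fell in CCl4 liver: 1.20 for Rrm2, 1.27 for Fanca, 1.44 for Fgf21, 1.53 for G6pc, 2.91 for Msln and 2.05 for Upk3b. Against the pooled CCl4 remainder only Rrm2, Fanca and Msln kept their call and so the opposition, Prtn3 turned to -1.92, the same sign as in the diet model, and the other 7 were not called. Of 284 named genes 31 were called in both models, 11 with opposed signs and 20 with equal signs. Many of these genes were named for large ratios in CCl4 liver. Over all tested genes 8.33% were called in CCl4 liver and 4.07% in the diet model. The share called in both was not counted over all genes, so nothing is read from these counts.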

How the results depend on the processing

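No paired analysis was possible because each group had 1 library. Without replicates, differences between mice, pools, collection times and preparations could not be separated from JT003, and sparse genes could not be compared. Main calls numbered 1148 (586 higher, 562 lower). Total-count scaling gave 1201 (709 and 492), DESeq2 factors 1146 (577 and 569), a filter of 1 count 1215, a prior count of 0.5 1211, no interval condition 1224 and FPKM 1047. Stricter rules left fewer genes by construction: 531 (223 higher, 308 lower) with 100 or more counts, 452 (160 and 292) with the whole interval past the threshold and 244 (78 and 166) past a log2 ratio of 2. Against the pooled CCl4 remainder 1182 were called (362 higher, 820 lower), of which 588 kept their call and direction and 3 turned. The remainder moved the median log2 ratio of mitotic kinases from -3.02 to -2.40, of adipocyte markers from -0.19 to -1.40, of red blood cell markers from 0.00 to -2.57 and of Xist from 1.73 to 0.82 (0.45 by FPKM). It reversed the medians of macrophage markers (0.12 to -0.51), neutrophil markers (0.39 to -1.33), chemokines (0.40 to -0.35), acute phase proteins (0.24 to -0.42), endothelial markers (0.44 to -0.12), cytochromes P450 (-0.17 to 0.27), female-biased genes (-0.31 to 0.54), oxidative phosphorylation (-0.13 to 0.27) and Y chromosome genes (0.14 to -0.15). It turned the sign of Prtn3 (2.80 to -1.92), Timd4 (1.53 to -0.26), Lcn2 (1.83 to -0.87), Cyp2a4 (-2.03 to 0.54) and Cyp17a1 (1.24 to -0.95), and left Mt1 (2.41 to -0.067) and Saa2 (1.67 to -0.013) close to no change. The filter of 100 counts moved mesothelial markers from -0.73 to -1.47 and reversed S phase repair (-0.86 to 0.13) and female-biased genes (-0.31 to 0.42). The filter of 1 count reversed skeletal muscle markers (-0.36 to 0.29). Apart from the smaller sets of genes, the cause was not tested.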
